A study of Mus musculus with 12 samples.

Results

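The genes described here are 7 genes of the alternative activation programme of macrophages and of its surroundings: the receptors Mrc1, Clec7a, Cd163 and Il4ra, the transcription factor Irf4, and the secreted factors Il10 and Ccl24. They were chosen by name from the 754 endogenous genes of a NanoString nCounter myeloid panel, and all 7 were on it. The assay hybridises a colour-barcoded reporter probe to each transcript and counts the barcodes singly. CD11c, the surface protein used for the sort, is carried by alveolar macrophages and by dendritic cells. The CD11c+ cells came from lungs of RELMa-/- mice on day 10 after infection with 500 larvae of the nematode Nippostrongylus brasiliensis. After overnight culture in 10% serum and starvation in 1% serum (1 h in the growth protocol, 2 h in the design text) they received recombinant RELMa (rRELMa) at 500 ng/ml or PBS for 4 h. The titles give 4 groups of 3 samples: rRELMa and PBS in run 2, and rRELMa and PBS in run 1. All groups share the RELMa deletion, the infection and the sort, so uninfected cells and cells with their own RELMa were not compared here. The labels name neither strain nor age, and they do not say what separates the runs. Whether the 3 samples of a group were separate mice or cultures is also not given, so each p-value covers the variation among these samples alone, part or all of which may be technical.

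Interleukin-4 and interleukin-13, made in quantity during worm infection, signal through a receptor that holds the interleukin-4 receptor alpha chain and activate the transcription factor STAT6. Macrophages so activated express the mannose receptor and chitinase-like proteins, and they secrete chemokines that draw eosinophils. RELMa itself is a product of these cells, and its gene is Retnla. Dectin-1, the product of Clec7a, and the mannose receptor, the product of Mrc1, are C-type lectins that bind sugars of microbes, and CD163 takes up haemoglobin bound to haptoglobin.

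Counts of all endogenous genes summed to between 411169 and 765719 in the samples of run 2, and to between 179719 and 257415 in those of run 1. A background limit, the mean plus 2 SD of the 8 negative-control probes of a sample, lay at 16.1 to 23.9 counts in run 2 and 19.7 to 31.1 counts in run 1. Retnla, the deleted gene, gave 5 to 18 raw counts, under the limit in every sample. Itgax, which encodes CD11c, was among the 9 alveolar macrophage markers on the panel, and all 9 passed the count minimum described next. The minimum was passed by none of the panel's 5 eosinophil markers, 7 markers of mast cells or basophils, 2 of NK cells, and 1 each of B and T cells. Of these the T cell marker Cd247 (mean raw count 19.7) and the NK cell marker Klrk1 (16.8) exceeded the background limit in at least 1 sample, and the others never did. Genes were tested if their mean raw count over the 12 samples was at least 20, which left 415 genes. Of the 7 genes here 5 passed, and Cd163 and Il10 did not.

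No change with rRELMa was called in any of the 5 tested genes. Mrc1, Il4ra, Clec7a, Irf4 and Ccl24 had log2 fold changes of 0.04 to 0.13, rRELMa over PBS, in the fit of both runs. The runs themselves differed widely. Mrc1 was 3.97-fold higher in run 2 than in run 1 after TMM scaling (trimmed mean of M values, which centres each sample on the bulk of the genes). On the same scale Clec7a and Il4ra were lower, with differences of -38.4% and -35.2%, and Ccl24 was 2.84-fold lower, although these 3 differences turn positive when samples are scaled to the positive-control probes instead. Irf4 was near background, and Cd163 and Il10 lay below it in every sample.

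**Figure D1:**
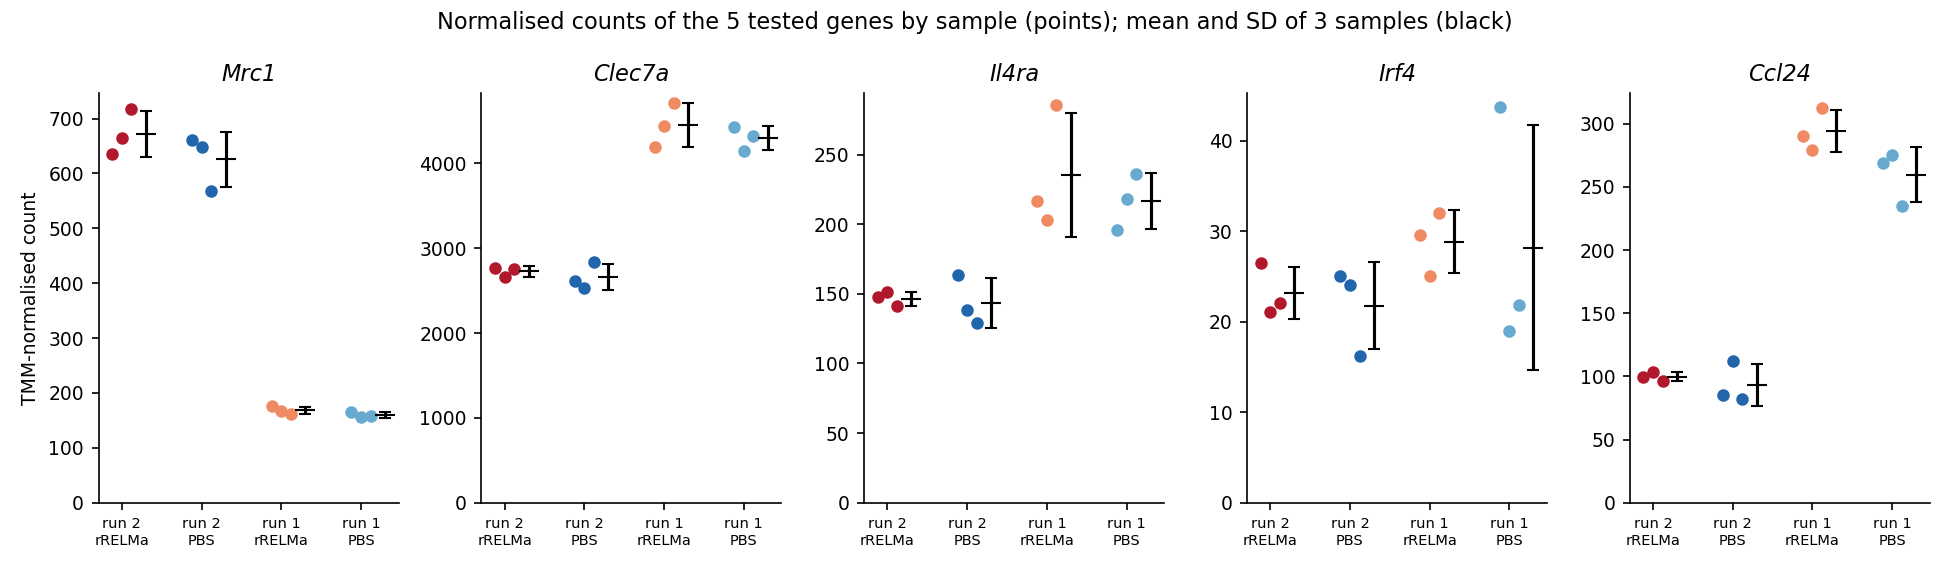
TMM-normalised count of each tested gene (vertical axes, linear from 0) in the 12 samples, with the groups in run 2 left of those in run 1 and rRELMa left of PBS; points are samples and black marks the mean and SD of 3. The runs do not overlap for Mrc1, Clec7a, Il4ra and Ccl24 on this scale, and rRELMa and PBS samples overlap in every panel except Ccl24 in run 1.

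Mrc1 encodes the mannose receptor (CD206), an endocytic lectin of alveolar and alternatively activated macrophages. Its normalised count in run 2 was 635, 665 and 717 with rRELMa, against 661, 648 and 569 with PBS. In run 1 it was 176, 167 and 162 with rRELMa, against 165, 156 and 158 with PBS. Within each run the treatments overlapped, while the lowest sample of run 2 was more than 3 times the highest of run 1. With the run as a block, rRELMa over PBS gave 0.09 on the log2 scale (SE 0.05, adjusted p = 0.693 by the quasi-likelihood test of edgeR). All 6 rRELMa samples lay above the PBS mean of their run. The same held for Il10, which was below background in every sample, and the share of all tested genes was not counted. Between runs the log2 difference of Mrc1 was 1.99 (SE 0.06, adjusted p = 4.36e-22), and it was 2.00 among rRELMa samples and 1.98 among PBS samples. Raw counts, 561 to 1126 in run 2 and 86 to 127 in run 1, were above the background limit in all 12 samples.

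Clec7a encodes dectin-1, the beta-glucan receptor of myeloid cells. Its normalised count in run 2 was 2772, 2659 and 2751 with rRELMa, against 2615, 2535 and 2834 with PBS. In run 1 it was 4195, 4436 and 4714 with rRELMa, against 4433, 4152 and 4323 with PBS. The treatments overlapped in both runs, and every run 2 sample lay below every run 1 sample. The log2 fold change with rRELMa was 0.04 (SE 0.04, edgeR, adjusted p = 0.833), and 4 of 6 rRELMa samples lay above the PBS mean of their run. Run 2 over run 1 gave -0.70 (SE 0.04, adjusted p = 2.71e-16) after TMM scaling and 1.09 after positive-control scaling.

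Il4ra encodes the receptor chain through which interleukin-4 and interleukin-13 activate STAT6. Its normalised count in run 2 was 148, 151 and 141 with rRELMa, against 163, 139 and 129 with PBS. In run 1 it was 217, 203 and 286 with rRELMa, against 196, 218 and 236 with PBS. The treatments overlapped in both runs, the widest spread was that of rRELMa in run 1, and the runs did not overlap. The log2 fold change with rRELMa was 0.05 (SE 0.08, edgeR, adjusted p = 0.891), with 3 of 6 rRELMa samples above the PBS mean. Without replicate 3 of run 1 rRELMa, the sample at 286, it was -0.04. Run 2 over run 1 gave -0.63 (SE 0.08, adjusted p = 8.75e-08) after TMM scaling and 1.16 after positive-control scaling.

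Clec7a and Il4ra shifted alike between runs. Both were called lower in run 2 after TMM scaling, as were 40.7% of all tested genes. The raw count of Clec7a per raw count of Il4ra in the same sample, a ratio in which any scaling factor cancels, was 16.0 to 22.0 in run 2 and 16.5 to 22.6 in run 1. Of the 10 pairs of tested genes here this pair had the smallest root-mean-square distance between mean-centred log2 profiles, 0.15 over 12 samples. These profiles hold the run difference. Within run 2 the PBS sample with the highest Clec7a (2834) had the lowest Il4ra of that run (129). Whether Clec7a and Il4ra follow each other within a run was not tested. The promoter windows of the 3 tested receptor genes, 250 bases before to 50 after the gene start, are shown because 2 of the genes moved together between runs and Mrc1 moved the other way on the TMM scale. They come from RefSeq (GRCm38.p6). Windows of 5 of the 7 genes were matched by symbol in the promoter table used here, and those of Il10 and Ccl24 were not analysed here. Capitals mark matches, on either strand, to 5 motifs. These were the STAT6 motif (TTC and GAA with any 4 bases between), the general STAT motif (TTC and GAA with any 3 between), the PU.1-type core GAGGAA, the interferon regulatory factor pair (GAAA and GAAA with any 2 bases between) and the ETS-IRF composite (GGAA and GAAA with any 2 between), a kind of site that IRF4 is known to bind together with PU.1. None of the matches below overlap one another.
Mrc1, GRCm38.p6, chr2:14229164-14229463, strand plus: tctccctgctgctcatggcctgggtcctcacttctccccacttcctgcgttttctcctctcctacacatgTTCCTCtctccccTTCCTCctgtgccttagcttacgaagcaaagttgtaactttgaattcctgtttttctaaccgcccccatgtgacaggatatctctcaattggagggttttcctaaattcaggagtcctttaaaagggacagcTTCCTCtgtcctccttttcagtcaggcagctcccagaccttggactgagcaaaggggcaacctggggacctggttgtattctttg
Clec7a, GRCm38.p6, chr6:129472730-129473029, strand minus: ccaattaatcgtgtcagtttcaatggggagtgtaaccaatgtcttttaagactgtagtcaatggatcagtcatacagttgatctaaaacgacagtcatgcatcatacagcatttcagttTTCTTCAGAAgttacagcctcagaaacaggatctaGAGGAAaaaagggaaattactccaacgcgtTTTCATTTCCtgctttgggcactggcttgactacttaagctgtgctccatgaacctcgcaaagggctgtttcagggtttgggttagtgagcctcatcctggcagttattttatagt
Il4ra, GRCm38.p6, chr7:125552021-125552320, strand plus: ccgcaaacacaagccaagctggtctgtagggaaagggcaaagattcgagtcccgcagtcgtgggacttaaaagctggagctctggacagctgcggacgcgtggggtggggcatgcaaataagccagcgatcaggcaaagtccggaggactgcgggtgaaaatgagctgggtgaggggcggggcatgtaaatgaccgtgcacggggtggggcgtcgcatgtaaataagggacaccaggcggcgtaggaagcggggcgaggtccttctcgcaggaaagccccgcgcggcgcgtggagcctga
The Mrc1 window held the PU.1-type core 3 times, each on the opposite strand. The Clec7a window held the STAT6 motif, the PU.1-type core and the composite, each a single time, and its alternative start, 6 bases away, gave a window with the same matches. The Il4ra window held none of the 5 motifs. Of 32851 windows of this length in the table, 6.95% hold the STAT6 motif, 8.30% the general STAT motif, 28.3% the PU.1-type core, 3.44% the interferon regulatory factor pair and 2.72% the composite. These are letter matches and were not tied to binding or to expression here.

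Cd163, the haemoglobin scavenger receptor, had raw counts of 4, 6 and 3 with rRELMa and 5, 5 and 2 with PBS in run 2. In run 1 it had 7, 3 and 4 with rRELMa and 6, 5 and 14 with PBS. All 12 values were below the background limit of their sample, so Cd163 was not detectable in these lysates.

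Irf4 encodes a transcription factor that drives alternative activation in macrophages and is needed by some dendritic cells. Its raw counts in run 2 were 47, 33 and 34 with rRELMa, against 40, 41 and 16 with PBS. In run 1 they were 18, 19 and 17 with rRELMa, against 27, 14 and 17 with PBS. The 3 rRELMa and 2 of 3 PBS samples of run 2 were above their background limit, while in run 1 none of the rRELMa and 1 of the PBS samples was. Irf4 thus passed the count minimum through the more deeply counted run 2. After scaling it had 23.2 ± 2.87 (SD, n = 3) with rRELMa and 21.8 ± 4.85 (SD, n = 3) with PBS in run 2, and 28.8 ± 3.51 (SD, n = 3) with rRELMa and 28.2 ± 13.6 (SD, n = 3) with PBS in run 1. The treatments overlapped in both runs, and so did the runs. The log2 fold change with rRELMa was 0.05 (SE 0.18, edgeR, adjusted p = 0.98), and 2 SE on either side span -18.9% to 32.8%. The run difference of -0.28 (SE 0.19, adjusted p = 0.176) was not called, and its sign depended on the scaling, with 0.30 after quantile normalisation, 0.11 without the count minimum and 1.50 with the positive controls. It was called lower with the reference genes, at -0.60 (edgeR, adjusted p = 0.00572), and with library totals, at -0.64 (edgeR, adjusted p = 0.00369). These run differences rest on run 1 values that were above background in 1 of 6 samples, and scaled background itself differs between runs by -1.46 on the log2 scale, so no run difference of Irf4 is read from them.

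Il10, the gene of an anti-inflammatory cytokine, had raw counts of 4, 4 and 4 with rRELMa and 1, 3 and 2 with PBS in run 2. In run 1 it had 7, 6 and 5 with rRELMa and 5, 4 and 3 with PBS. The 3 rRELMa samples of run 2 lay above the 3 PBS samples, as was the case in one direction or the other for 14.9% of tested genes in that run, and in run 1 the raw counts touched at 5. All 12 values were below the background limit, so no order of the treatments is read from them. In a fit without the count minimum Il10 had a log2 fold change of 0.77 with rRELMa (SE 0.36, edgeR, adjusted p = 0.653), which was not called.

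**Figure D2:**
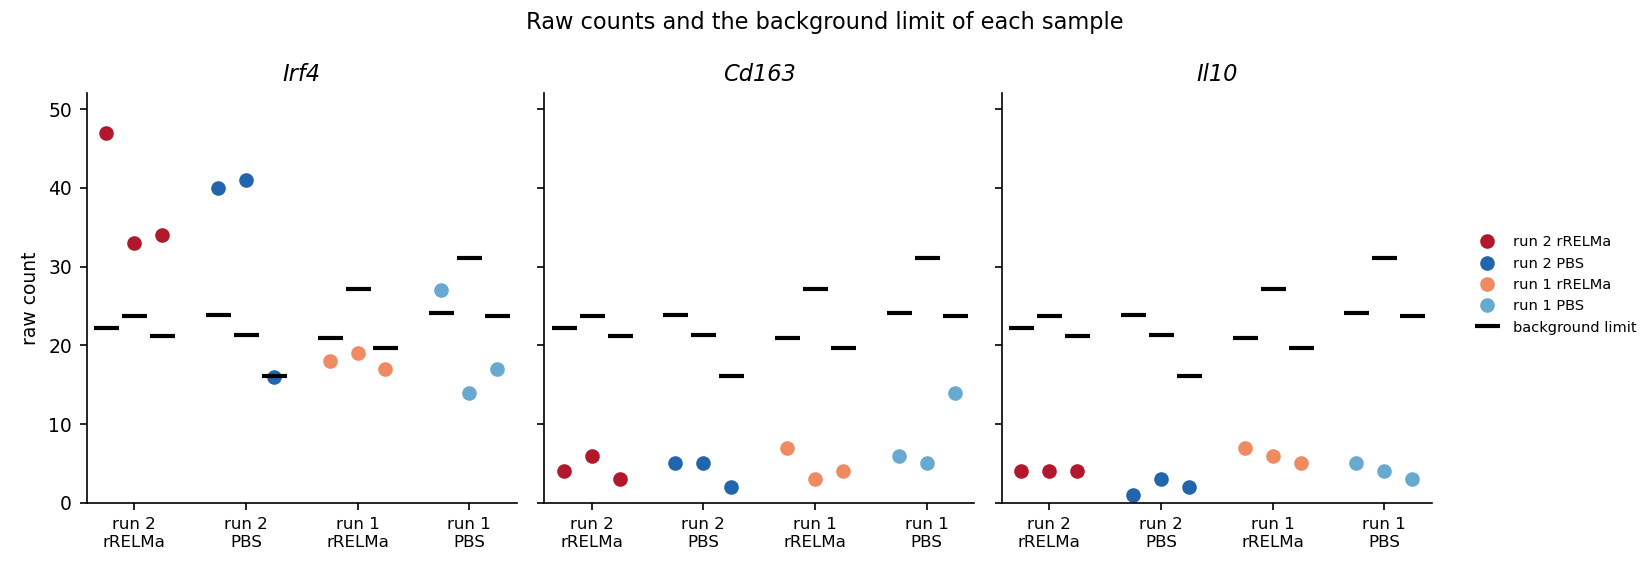
Raw counts (vertical axis) of Irf4, Cd163 and Il10 in each sample (points, coloured by group), with the background limit of the same sample as a black bar. Irf4 was above the limit in 5 of 6 samples of run 2 and 1 of 6 of run 1, and Cd163 and Il10 were below it in all 12.

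Ccl24 encodes eotaxin-2, a chemokine of alternatively activated macrophages that attracts eosinophils through the receptor CCR3. Its normalised count in run 2 was 99.2, 104 and 96.5 with rRELMa, against 85.1, 112 and 82.1 with PBS. In run 1 it was 290, 279 and 312 with rRELMa, against 269, 275 and 235 with PBS. In run 1 the 3 rRELMa samples lay above the 3 PBS samples, and in run 2 the PBS sample at 112 was the highest of that run. Such a separation was seen in 12.5% of the 415 tested genes in run 1, in 14.9% in run 2 and in the same direction in both runs in 1.2%. None of the other 4 tested genes here showed it in either run. Ccl24 had a log2 fold change with rRELMa of 0.13 (SE 0.08, edgeR, adjusted p = 0.703) in both runs together, 0.08 (SE 0.12, adjusted p = 0.954) in run 2 and 0.18 (SE 0.11, adjusted p = 0.794) in run 1. Without replicate 3 of run 1 PBS, the sample at 235, the run 1 value was 0.06, and without replicate 2 of run 2 PBS, the sample at 112, the run 2 value was 0.25. All 6 rRELMa samples lay above the PBS mean of their run, and the share of all tested genes for which this holds was not counted. Run 2 over run 1 gave -1.50 (SE 0.08, adjusted p = 2.21e-16), with -1.55 among rRELMa samples and -1.45 among PBS samples. After positive-control scaling this difference was 0.29. Transcripts of Ccr3 and of the other 4 eosinophil markers on the panel were below the background limit in every sample.

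Taking the 5 tested genes as a group, 0 were called for rRELMa against PBS by edgeR, DESeq2 or limma. In the main edgeR fit 0 had an unadjusted p under 0.05, against 32 of all 415. Over all tested genes 0.241% were called, which was 1 gene, Arg1, at -0.55 (SE 0.10, adjusted p = 0.00265). The median log2 fold change was 0.05 over the 5 genes and 0.01 over the 415. For Mrc1, 2 SE on either side of the estimate span a change of -1.24% to 14.9%. They span -2.18% to 8.43% for Clec7a, -7.47% to 15.9% for Il4ra and -1.93% to 22.2% for Ccl24. In the edgeR fit without the count minimum Mrc1 stood at 0.13, with an unadjusted p of 0.0325 and an adjusted p of 0.653. Within run 2 edgeR and DESeq2 called 0 of the 5 genes, and 0 had an unadjusted p under 0.05 by edgeR. Of all tested genes edgeR called 0% in that run, with 31 at an unadjusted p under 0.05. Within run 1 both tools called 0 of the 5, again with 0 unadjusted, and edgeR called 0.241% of all tested genes, with 25 at an unadjusted p under 0.05. The difference of the rRELMa effect between runs, run 2 minus run 1, was -0.10 to 0.02 with SEs of 0.07 to 0.38, and 0 of the 5 genes were called (0 unadjusted by edgeR, 0 by DESeq2). Of all tested genes edgeR and DESeq2 called 0% for that difference, with 28 at an unadjusted p under 0.05 by edgeR. With SEs of this size the absence of calls does not show equal effects.

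**Figure D3:**
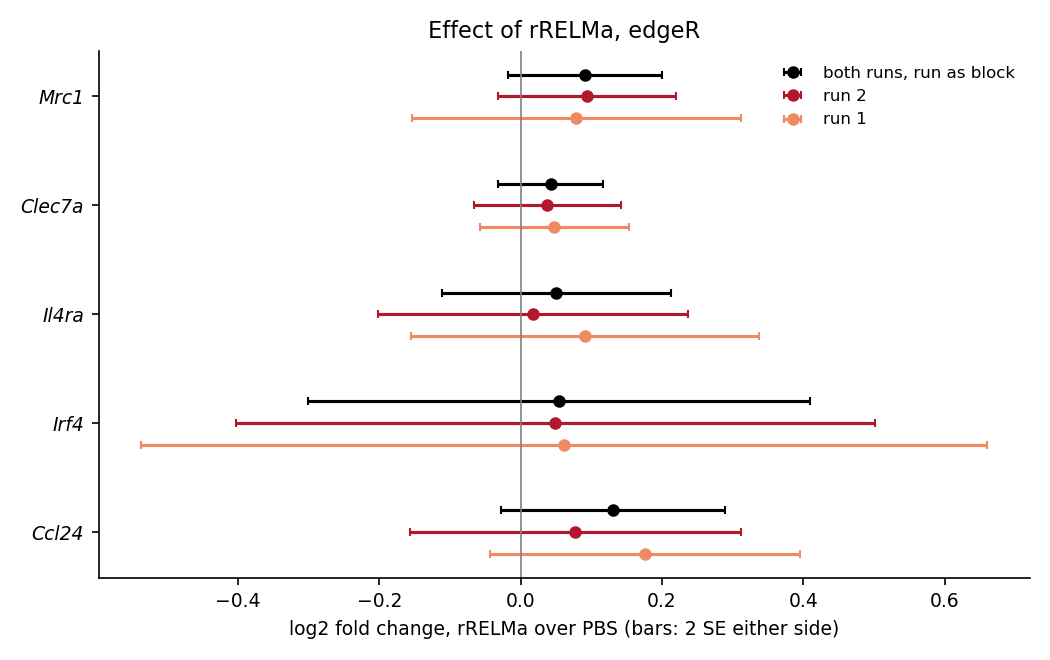
Log2 fold change of rRELMa over PBS (horizontal axis) for the 5 tested genes, from both runs with the run as a block, from run 2 and from run 1; bars reach 2 SE either side. Every bar includes 0, and the bars are shortest for Clec7a and longest for Irf4.

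Between runs, 4 of the 5 tested genes were called, 1 higher and 3 lower in run 2, where 74.7% of all tested genes were called, 34% higher and 40.7% lower. The share of the 5 is thus near the background. The same 4 genes were called among rRELMa samples alone, where 63.4% of all genes were (29.9% higher, 33.5% lower), and among PBS samples alone, where 65.8% were (29.9% higher, 35.9% lower). The runs did not overlap for these 4 genes after scaling, as for 53.3% of tested genes, 25.3% with run 2 above and 28% with run 2 below. What the run difference is relative to depends on the scaling, and run 2 had 6.76 to 9.32 endogenous counts per positive-control count and run 1 had 1.39 to 1.88. The median of all tested genes was -0.05 with TMM, -0.38 with the panel's reference genes, -0.41 with library totals, 0.14 with quantiles and 1.73 with the positive controls. Relative to that median, Mrc1 stood at 2.04 with TMM and 2.04 with the positive controls, with 99.8% of tested genes below it in both. Ccl24 stood at -1.45 and -1.44, with 8.45% of genes below it. Clec7a stood at -0.65 and -0.64, Il4ra at -0.57 in both, and Irf4 at -0.23 in both. Over all 11 settings the position relative to the median was 1.94 to 2.63 for Mrc1, -1.71 to -0.86 for Ccl24, -1.01 to -0.06 for Clec7a and -0.77 to 0.01 for Il4ra, with the highest value of each gene from the fit without the count minimum. The raw count of Mrc1 per raw count of Ccl24 in the same sample, which no scaling touches, was 5.77 to 7.76 in run 2 and 0.518 to 0.672 in run 1, a ratio 11.4-fold higher in run 2 by geometric means.

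**Figure D4:**
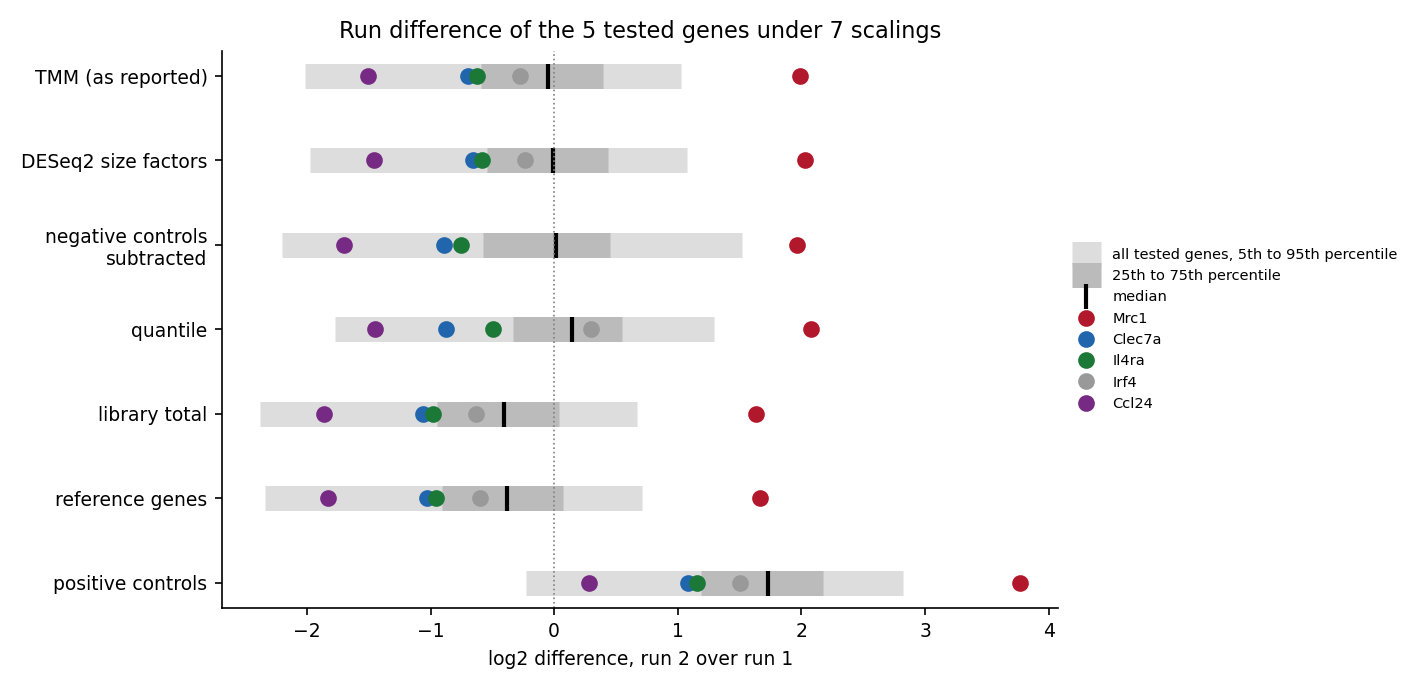
Log2 difference of run 2 over run 1 (horizontal axis) under 7 scalings (rows); coloured points are the 5 genes, grey bars the 5th to 95th and 25th to 75th percentiles of all tested genes and black ticks their median. Mrc1 lies above the 95th percentile in every row; Clec7a, Il4ra and Ccl24 lie left of 0 in all rows except the positive-control row, and Irf4, missing where it fell under the minimum, lies right of 0 in the quantile and positive-control rows.

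Low counts need a further value beside the run difference. The mean of the negative-control probes, scaled like a gene, was 7.19 ± 0.729 in run 2 and 19.7 ± 2.42 in run 1 (SD, n = 6), a log2 difference of -1.46 with no transcript behind it. On the same scale Cd163 had 2.69 ± 0.744 in run 2 and 9.57 ± 4.85 in run 1, and Il10 had 1.97 ± 0.730 in run 2 and 7.70 ± 2.74 in run 1 (SD, n = 6). Both genes lay below the mean of the negative controls in each run. In the fit without the count minimum, which has scaling factors of its own, both were called lower in run 2, Cd163 at -1.38 (SE 0.35, edgeR, adjusted p = 0.000674) and Il10 at -1.53 (SE 0.36, edgeR, adjusted p = 0.000417). Since every one of these counts was under its background limit, the calls are no measure of transcript. With the mean of the negative controls subtracted, Mrc1 stood at 1.97, Clec7a at -0.89, Il4ra at -0.76 and Ccl24 at -1.70, each still called, and Irf4 fell under the minimum.

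The tested genes outside the list whose mean-centred log2 profiles over the 12 samples lay nearest to each member were found by the root-mean-square distance. For Mrc1 they were the fatty acid synthase gene Fasn (0.19) and the chemokine receptor gene Cxcr1 (0.22), against a median distance of 1.03 over all tested genes. For Clec7a they were the chemokine receptor gene Ccr1 (0.09) and Trafd1 (0.09), with a median of 0.46. For Il4ra they were the class Ib MHC gene H2-T23 (0.14) and the platelet-activating factor receptor gene Ptafr (0.15), with a median of 0.45. For Irf4 they were the chemokine gene Cxcl14 (0.24) and Batf, a transcription factor gene (0.27), with a median of 0.47. Irf4 was above background in 1 of 6 samples of run 1, so nothing is read from its neighbours. For Ccl24 they were Cd180, a Toll-like receptor homologue (0.12), and the Notch ligand gene Jag1 (0.14), with a median of 0.79. The profiles hold the run difference, so genes that shift alike between runs come out as near.

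Other genes of the same pathways were read from lists. Of 19 tested genes of alternative activation outside the 7, Arg1 alone was called with rRELMa, and 18 were not. Over all the lists, the one other gene with an unadjusted p under 0.05 for rRELMa by edgeR was Stab1, a scavenger receptor gene (-0.30, adjusted p = 0.634), named after its values were seen. DESeq2 and limma called 1 gene each among all tested. Between runs 11 of the 19 were higher and 8 lower in run 2 (9 and 8 with the reference genes, 17 and 2 with the positive controls), with a median of 0.46 against -0.05 over all tested genes. The smallest p-values among them belonged to Il1rn, the interleukin-1 receptor antagonist (-2.22), the fatty acid transporter gene Cd36 (1.61) and the elastase gene Mmp12 (1.40), none of which changed sign under 10 other settings. Of 5 tested genes of interleukin-4 and interleukin-13 signalling 0 were called with rRELMa. Between runs Stat6 was higher (0.42) and so was the inhibitor gene Socs3, while Jak3 (-0.89) and the inhibitor gene Socs1 (-0.80) were lower. The scaled background limits of run 1 were 30.4 to 42.2. The run 1 mean of Socs3 (27.2) lay below them, and those of Jak3 (34.5) and Socs1 (41.6) lay among them. Scaled background differed by -1.46 between runs. Part of the lower values of Jak3 and Socs1 may thus be background, and the size of the Socs3 difference is not read. With the reference genes the list had 0 higher and 3 lower, and with the positive controls all 5 were higher. Among 6 other interferon regulatory factor genes, 0 were called with rRELMa. Between runs 1 was higher and 4 were lower (0 and 5 with the reference genes, 5 and 1 with the positive controls), led by Irf7 (-3.93), Irf1 (-1.13) and Irf5 (-0.43), of which Irf1 and Irf5 turned positive with the positive controls.

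Among 8 tested genes of C-type lectins and their signalling, 0 were called with rRELMa. Between runs 5 were higher and 3 lower, with Clec1b (-1.99) and Clec9a (-2.13) lower and the galectin gene Lgals3 (0.61) higher in all 11 settings. Scaled to the reference genes 2 were higher and 3 lower, and scaled to the positive controls 6 were higher and 1 lower. Of 7 tested scavenger receptor genes 0 were called with rRELMa. Between runs 3 were higher and 3 lower (2 and 4 with the reference genes, 6 and 0 with the positive controls), led by Cd36, Cd14 (-1.69) and Cd68 (0.62), with Cd14 at 0.10 after positive-control scaling. Of the 3 tested genes of the interleukin-10 pathway 0 were called with rRELMa. Between runs Socs3 was higher (0.64) and the receptor gene Il10ra lower (-0.29), Il10ra turning positive with the positive controls and without the count minimum. The run 1 mean of Socs3, 27.2, was below every scaled background limit of that run, so the size of its difference is not read. Stat3 stood at -0.003 and was not called. Scaled to the reference genes the list had 0 higher and 2 lower, and scaled to the positive controls all 3 were higher. None of the 5 other genes of the eotaxin list, among them Ccl11, passed the count minimum.

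Markers of cell types moved with the run as well on the TMM scale, the only scale given for them here. On that scale 34% of all tested genes were called higher and 40.7% lower in run 2. With the positive controls the median of all tested genes was 1.73, so the directions of the markers depend on the scaling. Of 9 alveolar macrophage markers 6 were higher and 2 lower in run 2. Their summed normalised count was 94455 to 104180 in run 2 and 65505 to 73652 in run 1. Chil3 alone averaged 96898 in run 2 and 68191 in run 1, so the sum is almost wholly the level of this gene. Chil3 is also in the list of alternative activation genes. Of 9 tested interstitial macrophage markers 1 was higher and 5 were lower, with sums of 1986 to 2292 in run 2 and 2329 to 2600 in run 1. The 2 tested monocyte markers were both lower, with sums of the panel's 4 of 23.7 to 38.5 in run 2 and 150 to 197 in run 1. The mean negative-control probe stood at 7.19 in run 2 and 19.7 in run 1 on this scale. Part of these sums of 4 probes, and of their difference between runs, is thus background. Of 9 tested dendritic cell markers 5 were higher and 2 lower, with sums of 1033 to 1344 in run 2 and 690 to 973 in run 1. Of 10 neutrophil markers 2 were tested, 1 higher and 1 lower, with sums of 609 to 796 in run 2 and 594 to 681 in run 1. Mmp8 was the most abundant of them, with a mean raw count of 437. The other 8, among them Ly6g, Csf3r, S100a9 and Cxcr2, never exceeded the background limit, so these sums are no measure of neutrophils. Of 3 epithelial, endothelial or stromal markers Cav1 was tested and was lower, with sums of 873 to 987 in run 2 and 2076 to 2480 in run 1. Cav1 had a mean raw count of 1417, Cdh5 did not pass the count minimum and Pdgfrb never exceeded the background limit. These sums are thus almost wholly the level of Cav1. The dendritic cell markers Xcr1 and H2-DMb2 and the interstitial macrophage marker Cx3cr1 never exceeded the background limit. The part of these shifts in the run differences of Mrc1, Clec7a, Il4ra and Ccl24 was not tested, and in such lysates fewer cells of a type and less RNA per cell cannot be told apart. With rRELMa, 0 markers of any of these lists were called.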

How the data were processed

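The authors deposited whole-number counts per probe for 12 samples (754 endogenous genes, 6 positive and 8 negative controls). Per the labels' protocols these came from the nCounter XT assay, with about 5000 cells hybridised for 18 h at 65 °C. The sources used here name no counting software and no floor (the lowest value was 1). Groups came from the titles.

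The members and gene lists were chosen with earlier results of these data known. The deposited counts of genes with a mean of at least 20, without the 20 reference genes on the panel, were fitted with edgeR's quasi-likelihood test (edgeR 4.0.16, limma 3.58.1, DESeq2 1.42.0, R 4.3.3) after TMM scaling. One fit had treatment and run as terms, and another had 1 coefficient per group. Two-sided p-values were Benjamini-Hochberg adjusted over 415 genes, and calls were made at an adjusted p under 0.05. The scripts were tested on simulated data. No 2 samples of a group agreed within sampling noise, since the chi-square of the 12 pairs was 1.55 to 3.25 times its degrees of freedom. Named genes were the 7 members, the 2 nearest profiles of each tested member, up to 3 genes per list with the smallest p between runs, and genes of a list called with rRELMa. Alternatives covered scaling, background, filter, tool, run term, pairing and left-out samples. Probe sequences were not used here.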

Additional observations from a re-analysis of the deposited data

How the results depend on the processing

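Leaving out samples in turn within single runs, and the replicate block there, were chosen after the data were seen. The count of members called was 0 for rRELMa against PBS, with both runs or within one, in every alternative run. Without the run term 0 of all genes were called, against 1 with it. Between runs it was 4 in the main fit and 4 to 6 in the others, the 6 arising without the count minimum, where Cd163 and Il10 entered. Scaled to the positive controls, the run difference turned to 1.09 for Clec7a, 1.16 for Il4ra, 1.50 for Irf4 and 0.29 for Ccl24. Irf4 also turned to 0.30 with quantile normalisation and 0.11 without the count minimum (0.12 among rRELMa samples, 0.10 among PBS samples). It was called lower at -0.60 with the reference genes (-0.63 among rRELMa samples) and at -0.64 with library totals (-0.68 among rRELMa samples). Il4ra was no longer called without the count minimum among rRELMa samples (-0.26) or PBS samples (-0.22). With 1 sample left out in turn, the rRELMa effect was 0.05 to 0.12 for Mrc1, -0.00144 to 0.0662 for Clec7a, -0.0356 to 0.104 for Il4ra, -0.0341 to 0.154 for Irf4 and 0.06 to 0.20 for Ccl24, with 0 calls. For Ccl24 it was -0.00936 to 0.247 in run 2 and 0.0608 to 0.207 in run 1. The run difference was 1.97 to 2.04 for Mrc1, -0.71 to -0.63 for Clec7a, -0.68 to -0.51 for Il4ra, -0.34 to -0.08 for Irf4 and -1.58 to -1.43 for Ccl24. For Irf4 among PBS samples it was -0.45 to 0.16. Of 198 further fits of single members within runs or of the difference of effects, 46 turned a sign and 0 gave a call. Causes were not tested.

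Same-numbered samples did not deviate together (r -0.08 to -0.02 over tested genes, none of 6 pairs over 0.1, and 0 of 6 rRELMa samples correlated best with their own number). In both runs the positive correlations joined rRELMa 1 with PBS 2, 2 with 3 and 3 with 1, at 0.12 to 0.14 in run 1 and 0.13 to 0.21 in run 2. All other pairs were negative. This order was noticed after the values were seen, no block with this matching is given here, and its cause was not tested. With the number as a replicate block, 0 members were called for rRELMa against PBS, and 0 in either run. Irf4 in run 1, and Cd163 and Il10 in both runs, are limited by background: raw counts of Cd163 (2 to 6 in run 2, 3 to 14 in run 1) and Il10 (1 to 4 in run 2, 3 to 7 in run 1) were not higher in the run with the larger totals.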

Other observations

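For the members with higher counts the spread between samples can be set beside counting error, taken as 100 divided by the square root of the mean raw count. The coefficient of variation of Clec7a was 2.22% with rRELMa and 5.81% with PBS in run 2, and 5.84% with rRELMa and 3.29% with PBS in run 1, against counting errors of 1.50%, 1.63%, 1.89% and 1.81% in the same groups. For Mrc1 in run 2 it was 6.24% with rRELMa and 8.01% with PBS, over the counting errors of 3.03% and 3.32%. For Mrc1 in run 1 it was 4.15% with rRELMa and 3.09% with PBS, under the counting errors of 9.68% and 9.39%. For Ccl24 in run 2 it was 3.66% with rRELMa and 17.8% with PBS, against 7.85% and 8.57%, and in run 1 it was 5.66% with rRELMa and 8.38% with PBS, against 7.35% and 7.37%. For Il4ra in run 2 it was 3.43% with rRELMa and 12.4% with PBS, against 6.47% and 6.93%, and in run 1 it was 18.9% with rRELMa and 9.25% with PBS, against 8.28% and 8.02%. With 3 samples a group, an SD under the counting error is no measure of the assay's precision.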
